A study of Mus musculus with 2 samples.

Results

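The solute carrier (SLC) genes expressed in BM LSKs encode membrane transporters, and 159 of the 34745 genes in the deposited tables were described here. They were chosen by their symbol, in the form of Slc followed by a family number, letters and a member number, and by their measured level, an FPKM of at least 1 at week-0 or at week-3. FPKM counts sequenced fragments relative to the exon length of the gene and to the size of the library, so it allows levels of different genes to be compared. Symbols of this form belonged to 359 genes. Leaving out Slc2a1, Slc2a3, Slc16a1, Slc16a3, Slc3a2, Slc7a11 and Slc40a1 left 352 genes, of which 193 were under the limit in both libraries, 80 of them without a single read. The 159 SLC genes came from 41 families, and all 159 were annotated as protein coding in GENCODE M21. An FPKM of at least 1 was reached in both libraries by 130 of them, at week-0 alone by 14 and at week-3 alone by 15. At the limit, Slc39a14, Slc39a8 and Slc15a2 were just inside, with an FPKM in their higher library of 1.002, 1.009 and 1.06. Slc19a2, Slc25a31 and Slc46a3 were just outside, with 0.977, 0.967 and 0.923.

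The samples were BM LSKs, the lineage-negative Sca1+ c-Kit+ cells of the bone marrow, which hold the hematopoietic stem and early progenitor cells. They were sorted from Scl/tTA-BA mice on the C57BL/6 background, which carry a tetracycline transactivator (tTA) under Scl control and a BCR/ABL (BA) transgene that the transactivator switches on when doxycycline is absent. Mice of both groups carried both transgenes and had been kept on doxycycline in the drinking water, and the groups differed in the time since its withdrawal, week-0 for the control and week-3 for the BA-expressing cells. The age of the mice was not given in the sources used here. LSKs of 3 mice were mixed for each time point, giving 1 library each. The spread between mice is therefore unknown, no test between the time points could be made, and each comparison below is between these 2 libraries.

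SLC proteins are secondary active transporters and facilitators. They carry amino acids, sugars, ions, metals, vitamins and nucleosides across membranes down a gradient or coupled to the movement of sodium, protons or another solute, and, unlike ABC transporters, they are not pumps driven by ATP. Proliferating blood cells rely on them to bring in glutamine and leucine for protein synthesis, to load mitochondria with phosphate, ADP and substrates, and to supply the Golgi apparatus with the nucleotide sugars used to build glycoproteins. Each SLC gene was placed by its family number alone into 1 of 9 substrate groups, so a few members stand in a group that is not their own best-known substrate. Slc5a3, for example, carries inositol and Slc5a6 vitamins, although both belong to a family of sugar cotransporters.

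The depth was 6356164 reads on genes for week-0 and 3886695 for week-3, so 3 reads correspond to 0.472 reads per 1000000 at week-0 and 0.772 at week-3. The deposited data have no row for the BA fusion transcript, so its induction was not checked here. The paper reports a higher BA level in LSKs at week-3, measured by quantitative PCR. Endogenous Bcr had an FPKM of 8.93 at week-0 and 4.25 at week-3. Abl1 had 3.00 and 1.79. Of the 8 LSK markers, 7 had an FPKM of at least 1, and their list had a summed FPKM of 268 at week-0 and 113 at week-3, with Flt3 and Mecom at most 0.5 times. Markers of other cells also differed between the libraries. Mast cell and basophil markers had a summed FPKM of 310 at week-0 against 3339 at week-3 and were at least 2 times higher for 12 of 14 genes, with Mcpt1, Mcpt2, Mcpt4 and Tpsb2 at 0 reads at week-0. Neutrophil and monocyte markers went from 2253 to 11371, with 10 of 13 at least 2 times higher. Erythroid markers went from 1564 to 183, with 10 of 11 at most 0.5 times, and B cell and plasma cell markers from 1926 to 265, with 5 of 7. Megakaryocyte markers went from 89.7 to 53.4, with 2 of 5 at most 0.5 times. For macrophages and for T and NK cells, 1 marker each reached an FPKM of 1 and stayed between the limits, and Marco and Siglec1 in both libraries and Cd3e and Cd8a at week-3 were at 0 reads. In RNA of sorted cells mixed together, a larger share of cells of a type and more RNA per cell cannot be told apart, and the part of these cells in the values below was not tested.

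The SLC genes took 0.898% of the reads of the week-0 library and 0.866% in the later one, and their summed FPKM was 1840 and 1928. A few genes carried most of this sum. Slc25a5, the ADP/ATP carrier of the inner mitochondrial membrane, alone made up 19.7% at week-0, then 22.1% at week-3. The 10 SLC genes of highest mean FPKM made up 50.5% and 54.3%. Of the 159 genes, 25 had an FPKM of at least 10 at both time points, and the median SLC gene had 3.32 at week-0 and 3.59 at week-3.

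The ratio of the FPKM at week-3 to that at week-0 was at least 2 for 23 SLC genes and at most 0.5 for 30, and 106 lay between these limits. Among the 11776 genes of any kind that reached an FPKM of 1 at either time point, 12.9% were at least 2 times higher and 15.8% at most 0.5 times. The corresponding shares of the SLC genes were 14.5% and 18.9%. Since the choice of genes used the same values, nothing is read from these shares, nor from the counts by substrate group below. The median log2 ratio was 0.12 over the SLC genes and 0.10 over all genes. With library sizes scaled by TMM, which lowers the log2 ratio of every gene by 0.11, the split was 18 higher and 36 lower, beside 10.8% and 17.6% of all genes under the same scaling. A 95% interval from the number of reads lay wholly above a log2 ratio of 0 for 56 SLC genes and wholly below it for 56, and held 0 for 47. These intervals cover the counting of reads only and treat each read as independent. Amplified cDNA can give several reads per original molecule, so they may be too narrow even for the sampling of molecules.

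**Figure D1:**
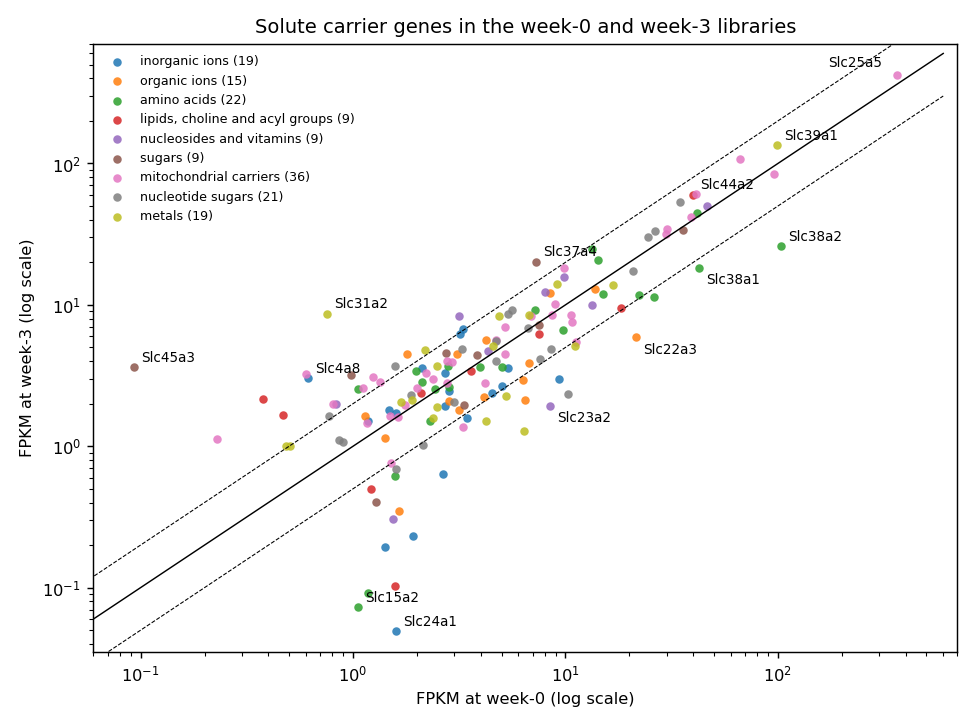
FPKM of the 159 SLC genes at week-0 (horizontal, log scale) and week-3 (vertical, log scale), 1 point per gene and coloured by substrate group, with the solid line at equal levels and the dashed lines at 2 times and 0.5 times. Highly expressed genes such as Slc25a5 and Slc39a1 lie near the solid line, Slc38a2 is the gene of highest level under the lower dashed line, and Slc45a3 and Slc24a1 lie farthest from the solid line.

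The genes past the limits were mostly of low level. Of the 23 higher genes, 1 had a mean FPKM of at least 10, and of the 30 lower genes 4 did, against 29 of the 106 between the limits. The number of reads followed the level. The library with fewer reads had under 20 reads for 10 of the higher and 15 of the lower genes. The largest ratios were thus read from few reads, and the interval still held 0 for Slc25a2 and Slc35d2.

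Amino acid and peptide transporters formed the group with the largest drop in summed level, from an FPKM of 324 at week-0 to 212 at week-3. Among its 22 genes, 1 was at least 2 times higher and 6 were at most 0.5 times, and the median log2 ratio was -0.24. The drop in this sum lay in the Slc38 family, which is part of the group. Its proteins are sodium-coupled carriers of glutamine, alanine and other small neutral amino acids. The 7 members of this family had a summed FPKM of 179 at week-0 and 66.7 at week-3. The rest of the group was nearly level in sum, with genes in both directions.

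Slc38a2 (SNAT2), whose transcript is known to be induced by amino acid shortage through ATF4, had an FPKM of 104 at week-0, from 3045 reads, and 25.9 at week-3, from 466 reads. Its log2 ratio was -1.998, with an interval of -2.14 to -1.86. At week-0 it was the second most abundant SLC transcript, behind Slc25a5. Slc38a1 (SNAT1), a glutamine importer of the same family, lay 44481 bases away on the same strand of chromosome 15. It had an FPKM of 42.4 at week-0 and 18.3 at week-3. This gave a log2 ratio of -1.21, with an interval of -1.34 to -1.08. Both of these neutral amino acid importers were lower at week-3 by more than the error of counting independent reads. Slc38a5 was read 21 times at week-0 and 1 time at week-3, and its log2 ratio of -3.68 had an interval of -9.05 to -1.05. The other members of the family were between the limits, although Slc38a10, at an FPKM of 22.3 and 11.7, was at most 0.5 times with TMM and with median-of-ratios scaling. Among the others, Slc38a9, a lysosomal arginine sensor for mTORC1, had an FPKM of 2.81 and 3.70, and Slc38a7, a lysosomal glutamine exporter, had 1.98 and 3.41.

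The 150 bases before the RefSeq start of Slc38a2 are shown because it had the lowest ratio among the SLC genes with a mean FPKM of at least 10. They lie at chr15:96699729-96699878 on the minus strand of GRCm38.p6 and hold none of the motifs searched below. The rest of the gene, its introns among it, was not searched, so an element there would not be seen.
Slc38a2: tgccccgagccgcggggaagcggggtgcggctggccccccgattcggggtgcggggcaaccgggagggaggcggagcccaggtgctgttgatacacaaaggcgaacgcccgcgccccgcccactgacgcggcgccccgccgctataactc

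In contrast to Slc38a2, the glutamine exchanger Slc1a5 (ASCT2) had nearly equal values, an FPKM of 41.6 at week-0 and 44.4 at week-3. Its interval, -0.02 to 0.20, held 0. Slc7a5 (LAT1), which brings in leucine in exchange for glutamine, had an FPKM of 14.2 and 20.7, a log2 ratio of 0.54 with an interval of 0.33 to 0.76. It works as a heterodimer with the heavy chain Slc3a2, which is among the genes left out and had an FPKM of 70.5 and 59.4. The intervals of Slc38a2 and Slc38a1 lay below 0, whereas that of the exchanger Slc1a5 held 0 and that of Slc7a5 lay above 0.

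Other light chains of such heterodimers were past the lower limit. Slc7a7 (y+LAT1), which exchanges cationic for neutral amino acids, had an FPKM of 1.57 at week-0 and 0.614 at week-3. Slc7a6 (y+LAT2), of the same function, had 26.1 and 11.3. Slc7a8 (LAT2) had 7.22 and 9.25, between the limits. Slc15a2 (PEPT2), a proton-coupled peptide importer, had the lowest FPKM of the group at week-3, 0.0729 from 3 reads, against 1.06 from 71 reads at week-0, a log2 ratio of -3.86 with an interval of -6.17 to -2.25. The 1 gene at least 2 times higher was Slc36a1 (PAT1), which exports amino acids from lysosomes with protons, at an FPKM of 1.05 and 2.52.

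**Figure D2:**
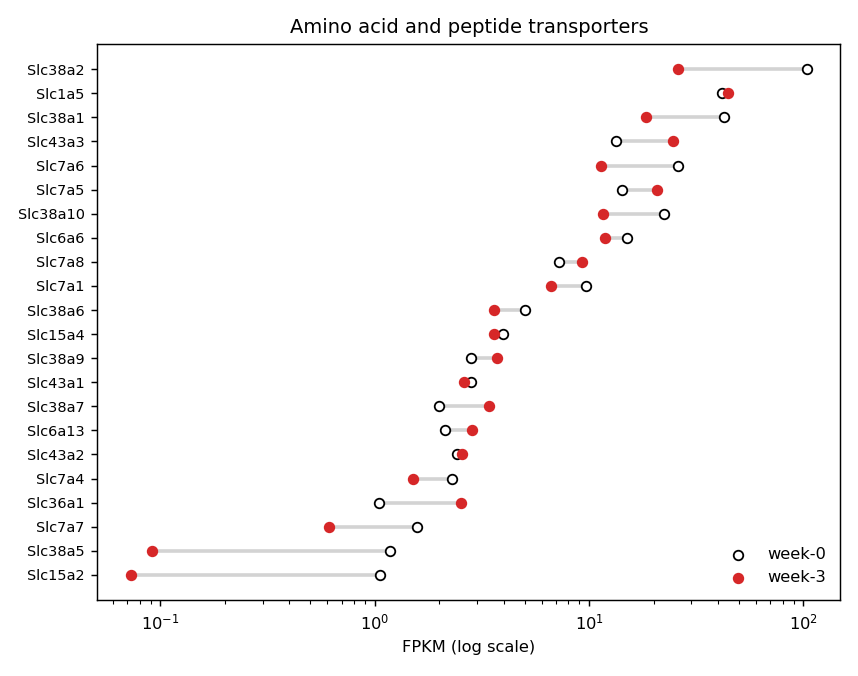
FPKM (horizontal, log scale) of the 22 amino acid and peptide transporters at week-0 (open points) and week-3 (filled points), ordered by mean FPKM, with 1 library per time point and a line joining the values of a gene. The points of Slc1a5 nearly coincide at 41.6 and 44.4, whereas those of Slc38a2 lie apart at 104 and 25.9, and those of Slc15a2 and Slc38a5 are the farthest apart.

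A list of 11 genes of the amino acid response, the program that ATF4 directs when amino acids run short, stood beside these values. All 11 had an FPKM of at least 1 in a library, 6 were at most 0.5 times and none was at least 2 times higher, and their median log2 ratio was -1.17. Over all genes with an FPKM of at least 1, 15.8% were at most 0.5 times and 12.9% at least 2 times higher, with a median of 0.10. The list was chosen with earlier results of these data known. Atf4 itself had an FPKM of 291 at week-0 and 129 at week-3. Ddit3, which encodes the stress factor CHOP, had 101 and 9.28. The synthesis enzymes of the list lay between the limits, with 5.12 and 5.62 for Asns, which makes asparagine, and 193 and 301 for Phgdh, the entry enzyme of serine synthesis. Whether the level of Slc38a2 depended on Atf4 here was not tested.

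The mitochondrial carriers, the Slc25 family, were the largest group with 36 genes and the most abundant, with a summed FPKM of 781 at week-0 and 915 at week-3. Of these genes, 6 were at least 2 times higher and 2 at most 0.5 times, 26 had a ratio above 1, and the median log2 ratio was 0.25. Slc25a5 (ANT2), which exchanges matrix ATP for cytosolic ADP, had an FPKM of 362 at week-0 and 426 at week-3. Its paralog Slc25a4 (ANT1) had 65.99 and 107, a log2 ratio of 0.70 with an interval of 0.58 to 0.82. Slc25a3, the phosphate carrier that supplies ATP synthase, had 95.9 and 84.0. The abundant carriers of oxidative phosphorylation thus stayed between the limits, with their intervals on either side of 0.

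Slc25a39, which brings glutathione into mitochondria, had an FPKM of 41.3 at week-0 and 60.4 at week-3. The iron carriers differed in direction, with Slc25a37 (mitoferrin 1), the form known from erythroid cells, at 4.16 and 2.80, and Slc25a28 (mitoferrin 2) at 9.87 and 18.2. Both lay between the limits, although neither interval held 0. Slc25a38, which brings glycine in for heme synthesis, had 8.65 and 8.46. Erythroid markers were lower at week-3, as given above, and their part in these values was not tested.

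The 6 higher mitochondrial carriers were of low level. Slc25a47, known from liver, had an FPKM of 0.598 at week-0, from 6 reads, and 3.26 at week-3, from 20 reads, and the ornithine carrier Slc25a2 had 2 and 6 reads. Slc25a44, which imports branched-chain amino acids, had an FPKM of 1.24 and 3.07, and Slc25a29, a carrier of basic amino acids, had 0.805 and 1.97. Slc25a27 and Slc25a14, both uncoupling protein relatives, had 1.11 and 2.59, and 1.34 and 2.86, and Slc25a14 did not reach 2 times with TMM scaling. None of these reached an FPKM of 5. Lower at week-3 were Slc25a36, which carries pyrimidine nucleotides, with an FPKM of 11.2 and 5.43, and Slc25a25, an ATP-Mg/phosphate carrier, with 3.31 and 1.37. Slc25a23, another ATP-Mg/phosphate carrier, had 1.51 and 0.767 and was at most 0.5 times with TMM scaling. Ucp2, a mitochondrial carrier under another symbol, had 72.2 and 48.1.

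Metal transporters held 19 genes, of which 4 were at least 2 times higher and 4 at most 0.5 times, with a median log2 ratio of 0.30. Both copper transporters were higher. Slc31a1 (CTR1), the importer of copper at the cell surface, had an FPKM of 2.18 at week-0, from 108 reads, and 4.82 at week-3, from 146 reads. Slc31a2 (CTR2), its relative in endosomes and lysosomes, had 0.755, from 14 reads, and 8.64, from 98 reads. The log2 ratios were 1.14 (interval 0.78 to 1.52) and 3.52 (2.70 to 4.44). At week-0 Slc31a1 was the more abundant of the pair, whereas at week-3 Slc31a2 was. Slc31a2 passed the level limit at week-3 alone, so its place among the SLC genes rests on the library where it was higher.

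The copper transporter genes are neighbours on chromosome 4, 62316 bases apart and on the same strand. The 150 bases before each RefSeq start are shown because both genes were past the same limit. They lie on the plus strand of GRCm38.p6, at chr4:62360551-62360700 for Slc31a1 and chr4:62286279-62286428 for Slc31a2, the latter 23867 bases inside the gene as the deposited table bounds it. Capitals mark a CCAAT box read on the opposite strand, 29 bases before the start of Slc31a1, and Slc31a2 has none of the motifs searched in these bases.
Slc31a1: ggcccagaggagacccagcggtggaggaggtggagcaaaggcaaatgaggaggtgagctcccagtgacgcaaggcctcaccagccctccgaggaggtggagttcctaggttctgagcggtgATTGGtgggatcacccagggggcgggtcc
Slc31a2: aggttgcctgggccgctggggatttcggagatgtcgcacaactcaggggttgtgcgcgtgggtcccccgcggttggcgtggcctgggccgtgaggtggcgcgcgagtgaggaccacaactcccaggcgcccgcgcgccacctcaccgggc

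The zinc carriers past a limit were importers. Among the 10 zinc importers of the Slc39 family, 2 were at least 2 times higher and 3 at most 0.5 times, and among the 4 zinc exporters of the Slc30 family none passed a limit. Slc39a1 (ZIP1) was the most abundant, at an FPKM of 99.0 and 135. Slc39a4 (ZIP4), the importer whose loss causes inherited zinc deficiency, had 6.37 at week-0 and 1.27 at week-3, from 90 and 11 reads. Slc39a13, a ZIP of the secretory pathway, had 4.24 and 1.51, and Slc39a9 had 11.04 and 5.12. Slc39a14 and Slc39a8, which also carry iron and manganese, had 0.484 and 1.002, and 0.503 and 1.009, and with TMM scaling neither reached 2 times. Slc41a1, a magnesium transporter, had 5.25 and 2.27. Slc11a1 (NRAMP1), the phagosomal metal exporter of macrophages, stayed under the level limit at 0.472 and 0.335.

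Inorganic ion transporters had the lowest group median, -0.49, with 2 of 19 genes at least 2 times higher and 6 at most 0.5 times. Of these genes, Slc24a1, Slc24a5, Slc26a10 and Slc9a9 passed the level limit at week-0 alone, and Slc4a8 at week-3 alone. The median and the counts of the group therefore depend on how the genes were chosen. Slc24a1, a sodium/calcium-potassium exchanger known from photoreceptors, had an FPKM of 1.60 from 53 reads at week-0 but of 0.0493 from 1 read at week-3. Its log2 ratio of -5.02, with an interval of -10.35 to -2.48, was the lowest of the 159. Slc24a5, an exchanger of pigment cells, had 24 reads and 2 reads, and 39.5% of its exon bases are shared with Myef2 on the opposite strand. The anion exchanger Slc26a10 had 27 and 2 reads, and 17.8% of its exon bases are shared with B4galnt1 on the opposite strand. These 3 genes were read no more than 2 times at week-3.

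Genes of the group with more reads were found past both limits. Slc20a1 (PiT1), the sodium-coupled phosphate importer, had an FPKM of 9.29 at week-0, from 590 reads, and 2.99 at week-3, from 116 reads, a log2 ratio of -1.64 with an interval of -1.94 to -1.35. Of its exon bases, 13.1% are shared with 9830144P21Rik and Gm4430 on the opposite strand. Slc9a9, a sodium/proton exchanger of endosomes, had 2.66 and 0.639. In the opposite direction, Slc4a8, a sodium-driven chloride/bicarbonate exchanger that raises the pH of the cytosol, had 0.615 from 57 reads and 3.03 from 172 reads, a log2 ratio of 2.30 with an interval of 1.86 to 2.76. The 3 bicarbonate transporters of the Slc4 family that passed the level limit had ratios above 1. Slc4a1, under that limit, went the other way, at 0.830 from 28 reads and 0.145 from 3 reads. Its log2 ratio was -2.51, with an interval of -4.87 to -0.82. The rest of the family had at most 11 reads over both libraries. With so few genes and 1 library per time point, this is a description. Slc8b1, the mitochondrial sodium/calcium exchanger, had 3.30 and 6.72 and did not reach 2 times with TMM scaling, under which Slc26a11 was at most 0.5 times.

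**Figure D3:**
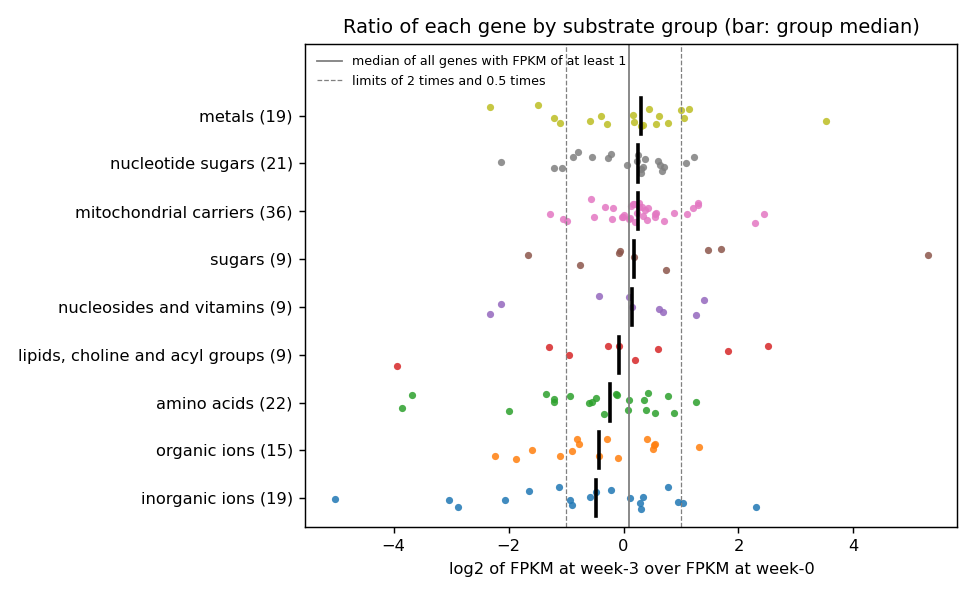
Log2 of the FPKM ratio, week-3 over week-0, for each of the 159 SLC genes (points) by substrate group, with the number of genes in parentheses, a black bar at each group median, a grey line at the median of all genes, 0.10, and dashed lines at 2 times and 0.5 times. Group medians run from -0.49 for inorganic ions to 0.30 for metals, and the points of every group lie on either side of 0. Genes that passed the level limit in 1 library alone are included, so the medians depend on how the genes were chosen.

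Organic ion transporters, 15 genes with a median of -0.43, had 1 gene at least 2 times higher and 4 at most 0.5 times. Slc22a3 (OCT3), a polyspecific carrier of organic cations such as monoamines, had an FPKM of 21.4 at week-0, from 476 reads, and 5.88 at week-3, from 80 reads, a log2 ratio of -1.86 with an interval of -2.22 to -1.52. Slc22a18 had 6.45 and 2.13, and the urea transporter Slc14a1, known from red cells, had 6.29 and 2.93. Slc22a4 (OCTN1), the ergothioneine importer, was the higher gene, at 1.80 from 35 reads and 4.47 from 53 reads, and its neighbour Slc22a5 (OCTN2), the carnitine importer, 91463 bases away on chromosome 11, had 3.09 and 4.51. Organic cation carriers of the same family were thus found past both limits.

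The vesicular amine transporters, which fill secretory vesicles with histamine, serotonin and other amines, were looked at beside the mast cell markers. Slc18a2 (VMAT2), the form of mast cells and platelets, had an FPKM of 13.8 at week-0 and 12.99 at week-3. Its interval, -0.35 to 0.17, held 0. Slc18a1 (VMAT1) had 1.64 and 0.349, from 69 and 9 reads. The serotonin importer Slc6a4 was under the level limit, with 1 read against 17 at week-3 and a log2 ratio of 4.80, with an interval of 2.12 to 10.18. Among the 14 mast cell and basophil markers, 12 were at least 2 times higher. Cpa3 had an FPKM of 54.3 and 821, and Hdc, which makes histamine, 5.75 and 30.7. The other markers, Prss34 and Gata2, were lower at week-3, at 168 and 80.4, and at 16.6 and 11.4. Slc18a2 was thus nearly level between libraries in which these markers differed.

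Monocarboxylate transporters of the Slc16 family, beside the pair left out, were 5 genes, and none passed a limit. Slc16a11 and Slc16a13, which lie 372 bases apart on chromosome 11 on opposite strands, had log2 ratios of -0.43 and -0.89, and Slc16a13 was at most 0.5 times with TMM scaling. The left-out lactate carriers Slc16a1 (MCT1) and Slc16a3 (MCT4) had an FPKM of 5.08 and 12.8, and of 1.26 and 4.15. Their chaperones Bsg (basigin) and Emb (embigin) had 118 and 144, and 114 and 190.

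Sugar transporters, 9 genes with a median of 0.19, included the gene with the highest ratio of the 159. Slc45a3, known as prostein from prostate, belongs to a family of proton-coupled sugar carriers. It was read 4 times at week-0, an FPKM of 0.0927, and 96 times at week-3, an FPKM of 3.64. Slc45a3 thus passed the level limit at week-3 alone, so its rank depends on how the genes were chosen. The log2 ratio was 5.29, with an interval of 3.89 to 7.20, and 13.5% of its exon bases are shared with Gm29103. The 150 bases before its RefSeq start, at chr1:131962765-131962914 on the plus strand of GRCm38.p6, are shown because it had this ratio, and hold none of the motifs searched.
Slc45a3: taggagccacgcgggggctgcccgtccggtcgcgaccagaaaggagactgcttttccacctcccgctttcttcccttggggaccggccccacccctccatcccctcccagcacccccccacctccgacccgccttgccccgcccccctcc

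Slc37a4, the glucose-6-phosphate carrier of the endoplasmic reticulum whose loss causes a glycogen storage disease with neutropenia, had an FPKM of 7.25 at week-0, from 96 reads, and 20.1 at week-3, from 163 reads. Its log2 ratio was 1.47, with an interval of 1.10 to 1.85, and it was the 1 higher SLC gene with a mean FPKM of at least 10. Slc5a6, the importer of biotin and pantothenate, had 0.981 and 3.17. The inositol importer Slc5a3 had 1.28 and 0.405. Slc50a1, a sugar carrier of the Golgi apparatus, was the most abundant of the group and nearly level at 35.9 and 34.1. The left-out glucose importers Slc2a1 (GLUT1) and Slc2a3 (GLUT3) had 14.9 and 8.97, and 8.64 and 2.99. Neutrophil and monocyte markers were higher at week-3, as given above, and their part in the level of Slc37a4 was not tested.

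Carriers of nucleosides, vitamins and heme were 9 genes, 2 at least 2 times higher and 2 at most 0.5 times, with a median of 0.14. The vitamin C importers were both lower. Slc23a2 (SVCT2), the widely expressed form, had an FPKM of 8.46 at week-0, from 488 reads, and 1.93 at week-3, from 68 reads, a log2 ratio of -2.13 with an interval of -2.52 to -1.77. Slc23a1 (SVCT1) had 1.54 and 0.307, from 41 and 5 reads. Summed over the pair, the level was 9.998 at week-0 and 2.23 at week-3.

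Nucleoside carriers differed among themselves. Slc28a2 (CNT2), which concentrates purine nucleosides with sodium, had an FPKM of 3.16 at week-0, from 153 reads, and 8.32 at week-3, from 246 reads. Slc29a2 (ENT2), an equilibrative carrier, had 0.827 and 1.98, and Slc29a1 (ENT1), the main equilibrative carrier of these cells by level, had 13.3 and 9.91. The folate importer Slc19a1 had 9.84 and 15.9 and the riboflavin importer Slc52a2 had 7.98 and 12.3, both between the limits with intervals above 0. Slc48a1 (HRG1), a heme carrier of lysosomes, was the most abundant at 46.4 and 49.7.

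Nucleotide sugar transporters of the Slc35 family, which carry building blocks of glycans into the Golgi apparatus and endoplasmic reticulum, were 21 genes. Of these, 2 were at least 2 times higher and 3 at most 0.5 times, and the median log2 ratio was 0.26. All 3 lower genes were members of the Slc35d branch. Slc35d3, known from platelet dense granules, had an FPKM of 10.3 at week-0, from 172 reads, and 2.35 at week-3, from 24 reads. Slc35d1 had 1.60 and 0.692, and Slc35d2 had 2.14 and 1.02, with an interval that held 0. Slc35b2 and Slc35b1, the most abundant, had 34.4 and 53.4, and 26.5 and 33.4. The former brings the sulfate donor PAPS into the Golgi apparatus. Slc35e3 (1.58 and 3.69) and Slc35g1 (0.771 and 1.63) were the higher genes, and Slc35g1 did not reach 2 times with TMM scaling. Megakaryocyte markers were lower in sum at week-3, as given above, and their part in the level of Slc35d3 was not tested.

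Lipid, choline and acyl group carriers were 9 genes, with 2 past each limit and a median of -0.08. Slc44a2, a choline transporter, led by level at an FPKM of 39.7 and 60.1, a log2 ratio of 0.60 with an interval of 0.46 to 0.74. Slc27a1 (FATP1), a fatty acid importer, had 18.3 and 9.48, between the limits but at most 0.5 times with TMM scaling. Slc33a1, which carries acetyl-CoA into the endoplasmic reticulum, had 0.467 and 1.65, but 32.02% of its exon bases are shared with Gm26850 on the opposite strand. Slc27a6 had 25 reads and 1 read, Slc44a4 had 32 and 8, and Slc10a1, the bile acid importer known from liver, had 4 and 14.

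**Figure D4:**
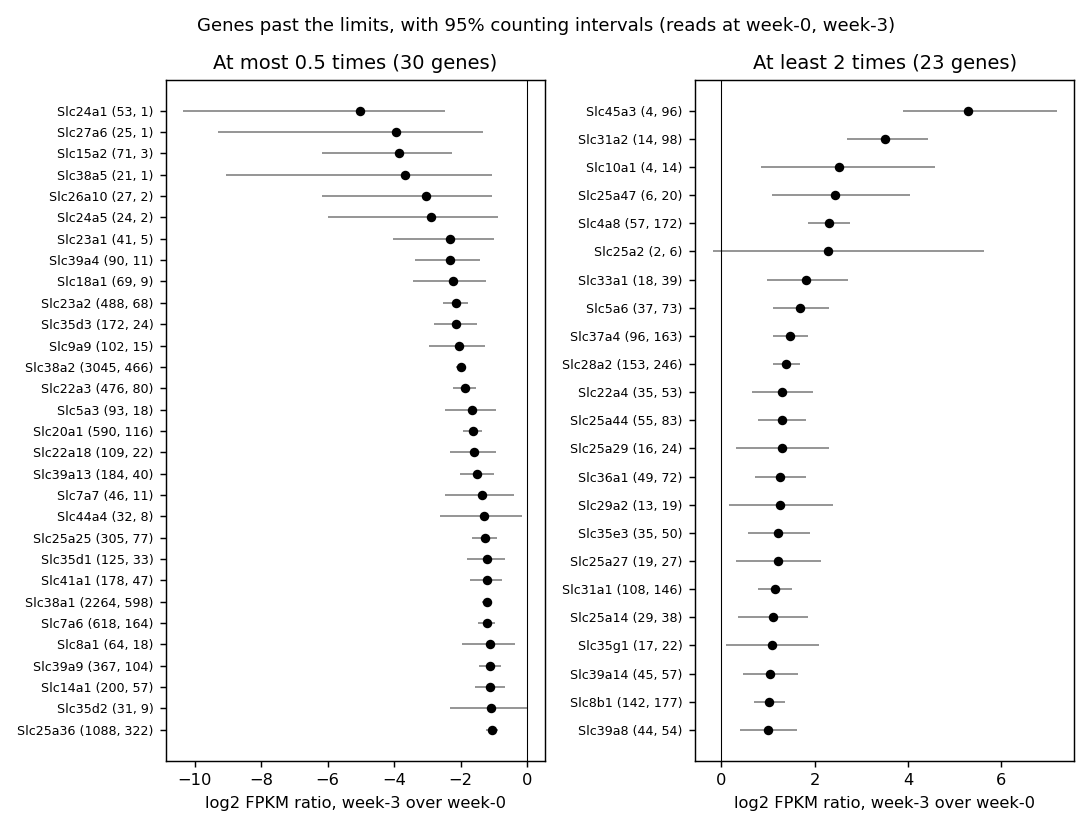
Log2 FPKM ratio, week-3 over week-0 (points), with its 95% interval from the number of reads (bars), for the 30 SLC genes at most 0.5 times (left) and the 23 at least 2 times higher (right), with the reads at week-0 and week-3 in parentheses and a line at 0. The bars are shortest for well covered genes such as Slc38a2 and Slc38a1, longest for genes with 1 or 2 reads in a library, and reach 0 for Slc25a2 and Slc35d2.

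By the place in the cell given in the gene ontology terms of the deposited tables, 72 SLC genes were assigned to the plasma membrane, with 12 at least 2 times higher, 17 at most 0.5 times and a median log2 ratio of 0.08. Their summed FPKM was 660 at week-0 and 553 at week-3. The 11 genes of the lysosomal membrane had 1 higher and 0 lower, with a median of 0.37 and a sum of 107 and 135. The 35 genes of the mitochondrial inner membrane had 5 and 2, with a median of 0.23, and the 15 of the Golgi membrane 0 and 2, with the same median of 0.23. A gene can have several of these terms. Over all genes with an FPKM of at least 1, 12.9% were higher and 15.8% lower, with a median of 0.10. Nothing particular to a place in the cell is read from these counts.

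Pairs of SLC genes within 100 kb of each other numbered 10. In 6 pairs, the log2 ratios had the same sign, among them the copper transporters, Slc38a1 with Slc38a2, Slc22a4 with Slc22a5, and Slc25a29 with Slc25a47. In the other 4, they had opposite signs, for example Slc52a2 (0.62) and Slc39a4 (-2.32).

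RefSeq promoter windows of 300 bases, 250 before and 50 after the start, were found for 119 of the 159 genes, and Slc38a1 was not among them. They were searched on both strands for 5 motifs, without overlap between the letters of different motifs being removed, and compared with the windows of 27025 genes. The GATA motif GATAA was found in 21.01% of SLC windows and 25.9% of all windows, the AP-1 motif TGANTCA in 5.88% and 7.91%, and CCAAT in 38.7% and 37.8%. The response element of ATF4 and C/EBP factors, TGATGNAA, was found in 3.36% and 4.07%, in the windows of Slc7a7, Slc9a9, Slc26a10 and Slc50a1. The NRF1 core GCATGCGC was found in 2.52% and 2.78%, in those of Slc33a1, Slc35e3 and Slc45a3, and in 0 of the 27 windows of mitochondrial carriers. A match of letters is not a binding site, and a window without one does not show that the gene lacks the element. Bases outside the windows, as in introns farther in, were not searched.

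Related transporters outside the SLC symbols were read from lists. Of 16 expressed proteins that belong to the SLC superfamily under other symbols, 1 was at least 2 times higher and 3 were at most 0.5 times. The higher gene was Tmem165, a cation transporter of the Golgi apparatus, at an FPKM of 1.87 and 7.99. Lower were Npc1, which exports cholesterol from lysosomes, at 3.98 and 0.920, Spns2, the exporter of sphingosine-1-phosphate, at 17.5 and 7.27, and Rhag, of red cell membranes, at 1.28 and 0.330. Of 19 expressed ABC transporters, which burn ATP, 1 was higher and 1 lower, with a median log2 ratio of 0.12. The shares over all genes with an FPKM of at least 1 were 12.9% higher and 15.8% lower, with a median of 0.10. Nothing particular to these lists is read from their counts.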

How the data were processed

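The RNA-seq libraries of BM LSKs were analysed, 1 per time point. From low-input RNA, the authors made cDNA (SMARTer Ultra Low kit), read both ends of the fragments and mapped trimmed reads to GRCm38 (mm10) with TopHat2 2.0.9, per the labels and methods. For each gene the authors deposited counts, whole numbers of reads without normalization, and FPKM, scaled by exon length and library total. The counter, its annotation and its use of strand are not given in the sources used here, so overlapping genes may share reads. More than 10% of exon bases overlap another gene in 13 of 159 SLC genes.

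Ratios are FPKM at week-3 over week-0 without pseudocount, read against the limits of 2 and 0.5 that the study used. A gene with 0 reads in 1 library counts as past the limit. With 1 library per group there is no test and no p-value. Intervals are exact Clopper-Pearson at 95% on the reads, turned into ratios with the library totals, and were tested on simulated data. Scaling used TMM (edgeR 4.0.16) and median-of-ratios (DESeq2 1.42.0) in R 4.3.3. The other steps used scipy 1.17.1, pandas 2.3.3, numpy 2.4.6 and matplotlib 3.10.9 in Python 3.11.15. Strand, biotype and exons come from GENCODE M21, and promoter sequences from RefSeq on GRCm38.p6.

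The SLC genes and all lists were chosen with earlier results of these data known. Named per substrate group are the 2 genes of highest mean FPKM and up to 5 genes past each limit with at least 20 reads. The rule also names 3 genes on either side of the level limit, the 7 left-out genes, Slc18a2, Slc6a4, Slc45a3, Slc31a2, Slc11a1, Slc25a37, Slc25a38, Slc7a5, Slc1a5, Slc29a1, Slc22a4, Slc38a2 and Slc24a1, and list genes on which a result turns. Other genes were named after their values were seen. Alternatives were other scalings, level limits, read limits, pseudocounts and ratio limits. Results of 2 genes are not reported here.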

Additional observations from a re-analysis of the deposited data

How the results depend on the processing

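No paired analysis was possible because each time point has 1 library, and for the same reason none could be left out. The 23 higher and 30 lower SLC genes became 18 and 36 with TMM and 19 and 34 with median-of-ratios scaling. Over all genes, 10.8% were higher and 17.6% lower with TMM, and 11.1% and 17.2% with median-of-ratios scaling. The median log2 ratio of the SLC genes, 0.12, became 0.012 with TMM. For the other settings the shares over all genes are not given, so nothing particular to the SLC genes is read from those counts. Genes no longer at least 2 times higher with TMM were Slc8b1, Slc39a14, Slc39a8, Slc25a14 and Slc35g1. A level limit of FPKM 2 left 16 higher and 18 lower of 128 genes, and FPKM 1 in both libraries left 10 higher and 17 lower of 130. The latter removed the 14 genes at the limit at week-0 alone and the 15 at week-3 alone. These had entered through their higher library only, so the main counts depend on how the genes were chosen. Without a level limit, 222 genes with a read in each library gave 37 and 46. A pseudocount of 1 gave 8 and 15, as it shrinks the ratios of low genes. Limits of 1.5 and 0.67 times gave 39 higher and 44 lower genes. Of the 66 values of named genes, 62 with TMM, 64 with median-of-ratios scaling, 66 with a pseudocount of 0.1 and 49 with a pseudocount of 1 stayed within the error from read numbers, and no direction of a gene past a limit was reversed. Leaving out genes that share over 10% of exon bases, an alternative chosen after seeing the data, gave 21 and 27 of 146 genes and a median of 0.13. Counting error limits what can be said of genes with few reads, and the spread between mice is unknown.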
